A study of Caenorhabditis elegans with 16 samples.

Results

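The response of wild type (WT) *C. elegans* to tunicamycin (TM) was examined in 8 of the 16 RNA-seq libraries of the series, 4 from WT animals on TM and 4 from WT animals on vehicle. Each difference is TM minus vehicle for 1 gene. A gene was considered when its mean over the 16 libraries exceeded the table minimum, the value of a count of 0, by 1 log2 unit or more. WT animals were of the N2 strain. Larvae that hatched together were raised at 20 °C to day 1 of adulthood, moved to plates with vehicle or with 10 µg/mL TM for 6 hr, and harvested whole. The other 8 libraries came from *osm-3(dh441)* mutants, which carry a lesion in a kinesin of sensory cilia, handled in the same way with 4 libraries for each treatment. RNA was depleted of ribosomal RNA and libraries were strand specific. The study asked how mutants with defective sensory cilia resist TM, and the WT response is the reference for that question.

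TM blocks the first step in the synthesis of the lipid-linked sugar chain that cells attach to asparagines of new secretory proteins. Without this N-glycan many proteins misfold in the endoplasmic reticulum (ER), and the unfolded protein response (UPR) follows. The ER membrane sensors IRE-1, PERK and ATF-6 slow translation and switch on genes for chaperones, for disulfide bond formation, for the removal of misfolded proteins (ER-associated degradation, ERAD), for vesicle transport and for membrane lipids. In *C. elegans* the reporter gene used most often for this response is *hsp-4*, which encodes the ER chaperone BiP. The account below is concerned with the gene classes beyond these chaperones.

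The 8 WT libraries held between 6426381 and 8144875 reads on the named genes of the table. The table lists 7667 of the 8311 protein-coding genes with sequence names before F46 (92.25%) and 5 of the 11674 others, so these totals are not the full depth, and gene families are described only by the members listed. The sensors *ire-1* and *atf-6* are among the genes covered. WT TM replicate 4 stood apart from the other 15 libraries. Of the genes nearly silent elsewhere, 92.7% had a read in it (mean 5.64 reads), whereas in the others this share was 16.9% to 45.4% and the mean at most 0.797 reads. Defining genes of intestine, oocytes, sperm, cuticle, muscle and neurons were detected in every WT library. RNA came from whole animals, so fewer cells of a type and less RNA per cell cannot be told apart. Values per library are given below as normalized counts, in the order of replicates 1 to 4, and differences with their tests are on the deposited variance-stabilized log2 scale, which compresses changes of weakly expressed genes.

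TM changed a small set of genes, of which most were not ER chaperones. Of 4115 genes tested, 64 passed an adjusted p of 0.05 (limma with Benjamini-Hochberg adjustment), which is 1.56%. Higher with TM were 34 genes (0.826%) and lower were 30 (0.729%), and 370 genes (8.99%) had an unadjusted p under 0.05. Only 6 of the 64 belonged to a list of ER folding genes, so 28 of the 34 raised genes lay outside it. The median log2 difference was 0.69 among raised and −0.59 among lowered genes, and on that compressed scale 10 genes rose and 1 fell by a log2 unit or more. By mean normalized counts the median was 2.02-fold for raised genes and 52.4% of vehicle for lowered genes, 18 genes at least doubled, and 12 fell to 50% of vehicle or less. The TM and vehicle groups were fully apart in 61 of the 64 genes, and in 4.28% of all genes tested.

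Vehicle and TM libraries with the same replicate number deviated together from their group means. The pairing was not clean, as TM replicate 2 was closer to vehicle replicate 3 (correlation of deviations 0.47) than to vehicle replicate 2 (0.25). With the replicate number as a block within each genotype, 244 genes passed (5.93%), 159 higher (3.86%) and 85 lower (2.07%), and all 64 genes were among them. Genes that passed only in this fit are named as such below. Without WT TM replicate 4 the count was 161, with 108 higher and 53 lower, and again all 64 were included. Leaving out WT vehicle replicate 1 lowered it to 41, and WT TM replicate 1 or 3 to 42. All 4 pairs of libraries with the same number moved one way in each of the 64 genes, as they did in 19.27% of all tested genes.

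**Figure D1:**
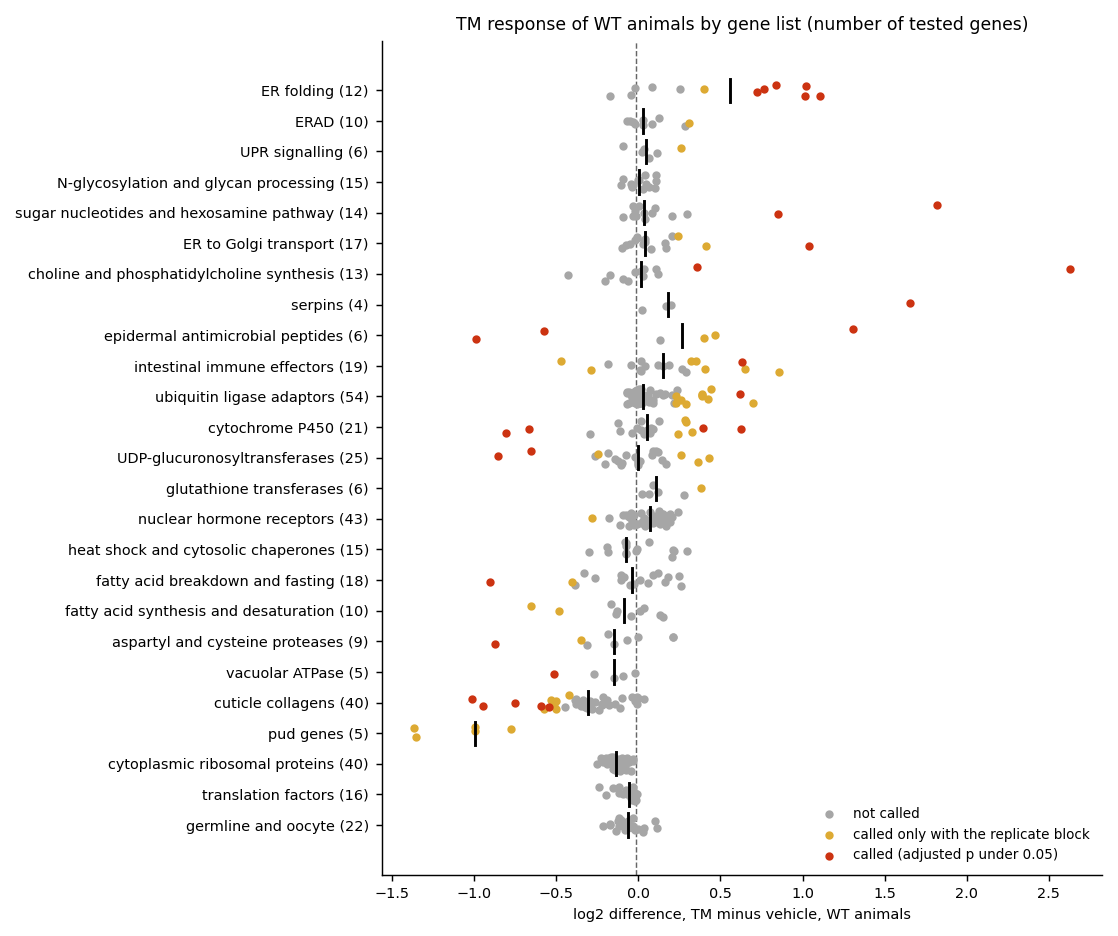
TM response of WT animals in 25 of the 73 gene lists. Each point is 1 tested gene, the x axis is its log2 difference between TM and vehicle, red points passed an adjusted p of 0.05, yellow points passed only with the replicate block, black bars are list medians and the dashed line is the median of all tested genes (−0.016). Most ER folding genes lie to the right, and most cuticle collagens and the *pud* genes to the left. Cytochromes P450 and the *nlp* peptide genes hold red points on both sides.

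Genes of lipid and sugar metabolism held the 2 largest increases on the log2 scale, *ckb-2* and *gale-1*, of which *gale-1* was in place 6 by the fold of mean normalized counts. The largest on both scales was that of *ckb-2* (chromosome III, 4367949 to 4370160, plus strand), a choline kinase, which catalyses the first step in making phosphatidylcholine from choline. Its normalized counts were 378, 544, 569 and 374 with vehicle and 3486, 3607, 4380 and 3779 with TM. The lowest TM library was far above the highest vehicle library. The mean rose 8.18-fold, and the log2 difference was 2.63 ± 0.12 (SE; limma, adjusted p = 1.1e-10). A second choline kinase, *ckb-4*, also rose, from 88.7 ± 8.56 to 150.7 ± 15.9 (mean ± SD, n = 4; log2 difference 0.36 ± 0.07, limma adjusted p = 0.0061). The genes beside *ckb-2* did not follow it. The adjacent *ckb-1*, which ends 479 bases before *ckb-2* on the same strand, had means of 55.2 and 58.6 and a log2 difference of 0.04 ± 0.08, and *ckb-3* on the other side had at most 2 reads in any WT library. Of the 13 genes tested on a list for choline use and phosphatidylcholine synthesis, *ckb-2* and *ckb-4* were the 2 that passed (0.826% of all tested genes were called higher). The lowest value on that list was that of *sams-1*, which makes the methyl donor for the alternative route to phosphatidylcholine (log2 difference −0.43, limma adjusted p = 0.23).

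*gale-1* (chromosome I, 12970239 to 12978787, plus strand) encodes the epimerase that interconverts UDP-galactose and UDP-glucose, and the corresponding N-acetylated sugars. It had 1191, 1195, 1298 and 1123 normalized counts with vehicle and 4203, 4931, 5037 and 4774 with TM. The 2 groups were widely apart and the libraries within each were close together. The rise was 3.94-fold (log2 difference 1.82 ± 0.10, limma adjusted p = 9.1e-10). *bre-1* (chromosome IV, 8987266 to 8990444, plus strand), a GDP-mannose dehydratase that supplies GDP-fucose for glycans, had 288, 302, 329 and 278 with vehicle and 601, 573, 765 and 795 with TM, again with no overlap. Its log2 difference was 0.85 ± 0.13 (2.28-fold, limma adjusted p = 8.6e-04). These were the 2 of 14 tested genes for sugar nucleotides and the hexosamine pathway that passed, where 0.826% of all tested genes were called higher. *gfat-1*, the rate-limiting enzyme of the hexosamine pathway, had a log2 difference of 0.29 ± 0.20 (limma adjusted p = 0.94). Of 15 genes tested on a list for N-glycosylation and glycan processing, which also counts *adt-2* and *piga-1*, none passed, also with the replicate block. As only 1.56% of all tested genes passed, the lack of a call on so short a list says little. Differences on this list were centred on 0.00 and none of the 15 had an unadjusted p under 0.05 in limma.

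Among the 12 ER folding genes tested, 9 were above 0 and 3 below it. The median log2 difference was 0.56, against −0.016 for all tested genes. Of the 12, 6 passed, all higher, where 0.826% of all tested genes were called higher. They were the protein disulfide isomerases *pdi-6* (1.11), *C14B9.2* (1.02) and *pdi-2* (0.77), which form and shuffle disulfide bonds, the BiP genes *hsp-4* (1.02) and *hsp-3* (0.72), and *dnj-7* (0.84), an ER co-chaperone of the J-domain type. The groups did not overlap in any of the 6. *pdi-1*, another disulfide isomerase, passed only with the replicate block (log2 difference 0.40, limma adjusted p = 0.010 with the block and 0.18 without it, 0.0036 to 0.45 over all alternatives). *hsp-3*, for example, went from 13087, 11063, 13534 and 12474 normalized counts to 22949, 17918, 23244 and 19377, and the summed counts of the 12 genes with TM were 165.7% of those with vehicle.

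The other arms of the ER response gave 1 call or none per list, where 1.56% of all tested genes were called. With the replicate block 5.93% of all tested genes passed. None of 10 tested ERAD genes passed, and *cup-2*, a derlin of the ER membrane, passed only with the replicate block (0.31). The 6 genes tested on the list for UPR signalling were *ire-1*, *atf-6*, *rtcb-1*, *tmbi-4*, *ifta-1* and *F09E8.2*, without *xbp-1* or the gene for PERK. Of these *ifta-1* is named for intraflagellar transport and not for the UPR. None of the 6 passed, and *ire-1* had a log2 difference of 0.03 ± 0.10 and *atf-6* one of −0.09 ± 0.07. With the block 1 of them passed, *F09E8.2* (now *crld-1*, 0.26). For transport between ER and Golgi 1 of 17 tested genes passed. This was *arf-1.1*, a small GTPase of the ADP-ribosylation factor family, with 60, 56, 86 and 9 normalized counts on vehicle and 185, 320, 258 and 174 on TM. Each TM library was above each vehicle library, although vehicle replicate 4 was far below the other 3. The log2 difference was 1.04 ± 0.16 (4.46-fold, limma adjusted p = 9.2e-04). *erd-2*, the receptor that returns escaped ER proteins from the Golgi (0.41), and *cope-1*, a subunit of the COPI vesicle coat (0.24), passed only with the block.

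*srp-7* (chromosome V, 8179126 to 8183442, plus strand), a serpin, came next after *ckb-2* and *gale-1* on the log2 scale and was in place 7 by the fold of mean normalized counts. Serpins are protease inhibitors that fold into a metastable state. Its normalized counts were 2340, 2422, 2508 and 2270 with vehicle and 7628, 7950, 11627 and 5639 with TM. The TM libraries were spread widely, with replicate 3 highest and replicate 4 lowest, yet all lay above the vehicle libraries. The log2 difference was 1.66 ± 0.15 (3.44-fold, limma adjusted p = 1.5e-06). The other 3 serpins tested had log2 differences of 0.20 (*srp-2*), 0.17 (*srp-6*) and 0.02 (*srp-1*), and none of them passed. *srp-8*, which starts 241 bases after the end of *srp-7* and was below the filter, had means of 28.4 and 44.2 normalized counts.

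**Figure D2:**
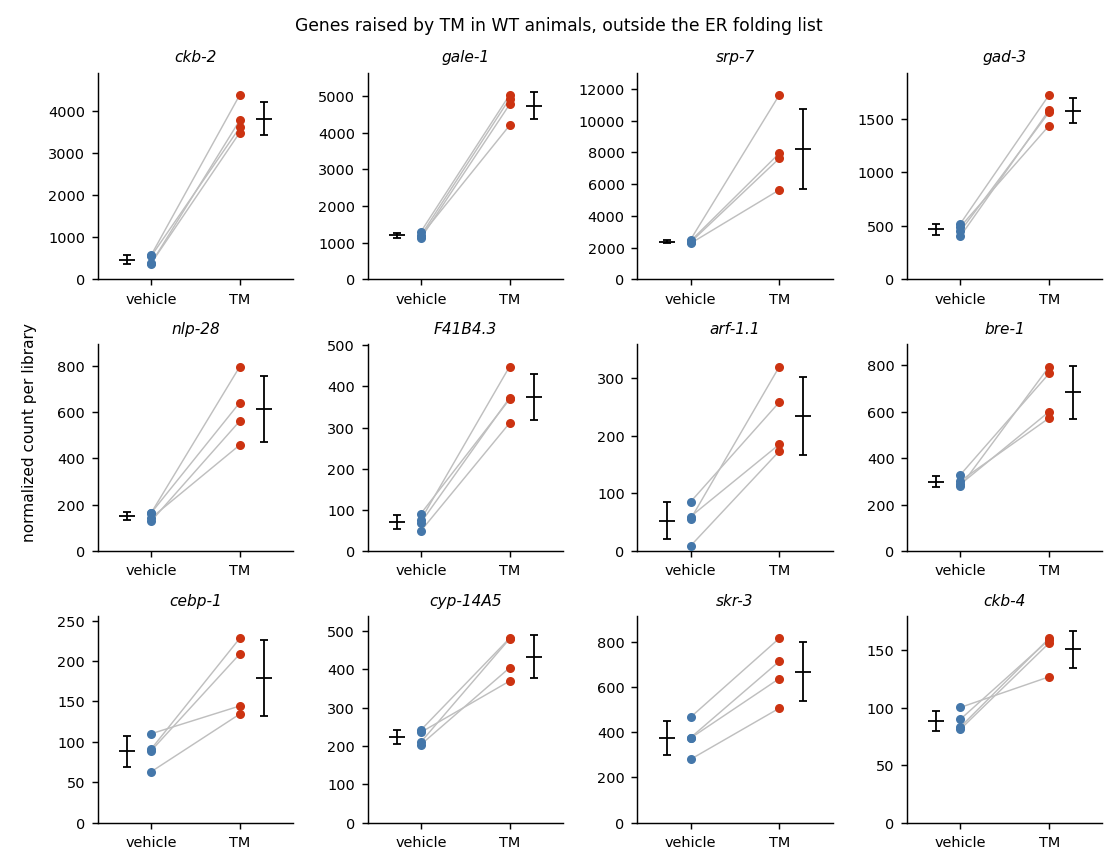
Normalized counts of 12 genes that TM raised in WT animals and that are not on the ER folding list. Blue points are the 4 vehicle libraries, red points the 4 TM libraries, grey lines join libraries with the same replicate number, black marks are mean ± SD, and each y axis starts at 0. The red points lie above all blue points in every panel, from 8.18-fold for *ckb-2* to 1.70-fold for *ckb-4*.

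Genes of epidermal defence moved in opposite directions. The *nlp-29* cluster encodes short secreted peptides that epidermal cells make on fungal infection and wounding, and 2 adjacent members of it responded oppositely. *nlp-28* (chromosome V, 3987900 to 3988316, plus strand) had 128, 164, 164 and 142 normalized counts with vehicle and 561, 640, 796 and 458 with TM. *nlp-27*, which starts 1061 bases further on the same strand (3989378 to 3989770), had 934, 1185, 1291 and 1184 with vehicle and 359, 649, 460 and 502 with TM. Neither gene had overlapping groups. The first rose by 1.31 ± 0.11 (4.11-fold, limma adjusted p = 2.7e-07) and the second fell to 42.9% of the vehicle mean (log2 difference −0.99 ± 0.16, limma adjusted p = 0.0020). By mean normalized count *nlp-27* was the more abundant of the pair on vehicle and *nlp-28* on TM. In TM replicates 2 and 4, however, *nlp-27* was still slightly the higher of the pair. On the other side of *nlp-28* in the cluster, *nlp-29* (0.47) and *nlp-31* (0.40) passed only with the replicate block, and *nlp-30* and *nlp-34* were below the filter. Another called peptide gene, *nlp-24*, which lies elsewhere on chromosome V, fell with *nlp-27*. It had 831, 937, 1063 and 1025 with vehicle and 481, 606, 592 and 673 with TM (log2 difference −0.58 ± 0.11, limma adjusted p = 0.0082), and its call was lost with quantile normalization (0.055). The genes of this cluster are alike in sequence, so reads may have been divided between them with some error.

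**Figure D3:**
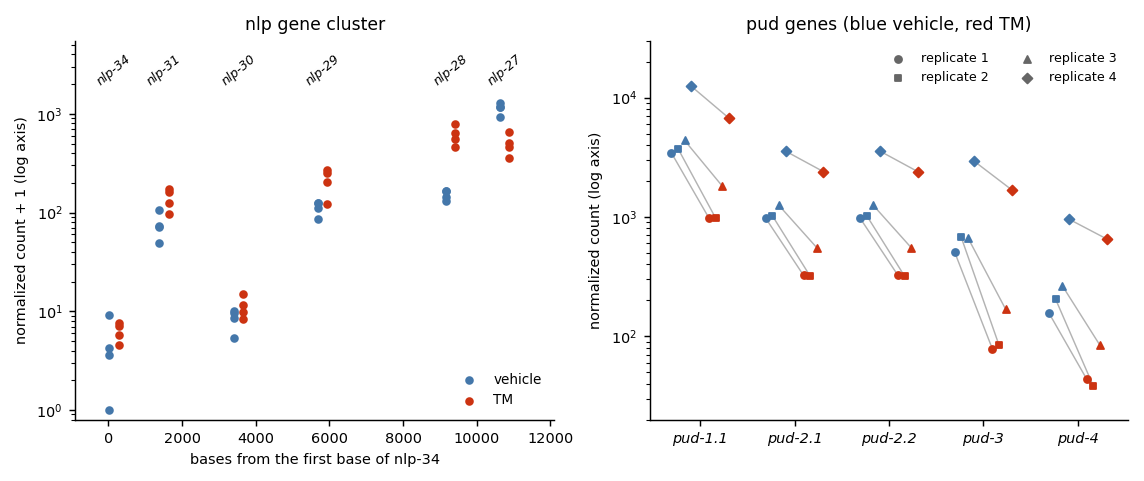
Left, normalized counts plus 1 on a log axis for 6 neighbouring *nlp* genes, at their distance from the first base of *nlp-34*, with 4 blue points for vehicle and 4 red points for TM. The red points are above the blue points for *nlp-28* and below them for *nlp-27*. Right, normalized counts of 5 *pud* genes on a log axis, where grey lines join the vehicle (blue) and TM (red) library of the same replicate number. Every line falls, and both libraries of replicate 4 lie above those of the other replicates.

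Of intestinal immune effectors, 1 of 19 tested genes passed, where 1.56% of all tested genes did. *dod-24*, a gene with a CUB-like domain that responds to pathogens and to DAF-16, had 395, 387, 514 and 282 with vehicle and 558, 870, 939 and 497 with TM. TM replicate 4 overlapped the vehicle range, but each TM library exceeded the vehicle library of its number (log2 difference 0.63 ± 0.15, limma adjusted p = 0.039). With the replicate block 6 of the 19 were higher, among them *C17H12.8* (0.86), *catp-3*, a relative of sodium pumps (0.65), *C29F3.7* (0.40), *irg-2* (0.35) and *cld-9* (0.32), while the lysozymes *ilys-5* (−0.47) and *lys-10* (−0.29) were lower. Over all tested genes 3.86% were higher and 2.07% lower in that fit. In p38 and immune signalling 1 of 13 tested genes passed, where 0.826% of all tested genes were called higher. This was *cebp-1*, a bZIP transcription factor known for its role in axon regeneration. It had 89, 110, 91 and 63 with vehicle and 209, 144, 228 and 134 with TM, with no overlap (0.49 ± 0.11, limma adjusted p = 0.031). *vhp-1*, a phosphatase that turns off MAP kinases, passed only with the block (0.38). The call of *dod-24* was lost without WT TM replicate 2 or 3 or WT vehicle replicate 1, 2 or 4, without replicate 1, 2 or 3 of *osm-3* TM or replicate 1, 3 or 4 of *osm-3* vehicle, with only the WT libraries and on log2 of the count plus 1 (adjusted p up to 0.18). That of *cebp-1* was lost with quantile normalization and without WT TM replicate 1 or 3 or WT vehicle replicate 1, 3 or 4 (up to 0.14).

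The list for subunits and adaptors of ubiquitin ligases had 54 tested genes (34 with Skp1-related or F-box names, 18 *math* and *bath* genes and 2 cullins). Of these 1 passed, the Skp1-related *skr-3*, where 1.56% of all tested genes passed. It had 374, 376, 466 and 280 with vehicle and 637, 714, 815 and 506 with TM, and the groups did not overlap (log2 difference 0.62 ± 0.14, limma adjusted p = 0.033). With the replicate block 11 of the 54 were higher (3.86% of all tested genes were) and none lower, *C10C5.2* (now *fbxc-58*) by 0.70 and *fbxa-182* by 0.44 among them. *fbxc-1* and *fbxc-5* had identical counts in every library, as had *fbxc-2* and *fbxc-4*, so these pairs cannot be told apart and the 11 stand for at most 9 separate measurements. The list median was only 0.03, and 36 of the 54 were above 0, against 42.9% of all tested genes. With quantile normalization 31 of the 54 were above 0, as were 1934 of the 4115 tested genes. The call of *skr-3* was lost with quantile normalization, without WT TM replicate 1, 2 or 3, without WT vehicle replicate 1, 2 or 4 and without *osm-3* vehicle replicate 3 (adjusted p up to 0.16). None of 17 proteasome genes, 15 heat shock and cytosolic chaperone genes or 6 genes of mitochondrial stress passed, also with the block. The mitochondrial chaperone *hsp-6* had a log2 difference of −0.32 ± 0.14 (limma adjusted p = 0.46).

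Detoxification genes split by family member. Cytochromes P450 oxidise lipids and foreign compounds, and UDP-glucuronosyltransferases (UGTs) add a sugar to them. Of 21 P450 genes tested, 2 rose and 2 fell, where 0.826% of all tested genes rose and 0.729% fell. *cyp-14A5* had 210, 204, 236 and 242 with vehicle and 480, 404, 370 and 481 with TM (log2 difference 0.63 ± 0.11, limma adjusted p = 0.0025), and *cyp-43A1* went from 225.0 ± 20.3 to 346.1 ± 28.2 (mean ± SD, n = 4; 0.40 ± 0.09, limma adjusted p = 0.022). *cyp-35A2*, an intestinal P450 induced by many xenobiotics, had 376, 645, 358 and 295 with vehicle and 109, 127, 218 and 224 with TM. Its relative *cyp-35C1* had 238, 363, 322 and 271 against 84, 108, 127 and 230. The groups were apart in all 4 genes, for *cyp-35C1* by little because TM replicate 4 was high. The decreases left 40.5% and 46.1% of the vehicle means (log2 differences −0.81 ± 0.17 and −0.67 ± 0.13, limma adjusted p = 0.013 and 0.0081). With the block 4 further P450 genes were higher, *cyp-13A12* (0.32), *cyp-33C7* (0.29), *cyp-33E2* (0.28) and *cyp-33C4* (0.24). Over all tested genes 3.86% were higher in that fit.

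Of 25 UGT genes 2 fell, as did 0.729% of all tested genes. *ugt-63* had 533, 462, 583 and 543 with vehicle and 130, 298, 134 and 383 with TM (log2 difference −0.86 ± 0.16, limma adjusted p = 0.0081), and *ugt-22* had 1674, 1977, 1922 and 1561 against 733, 1028, 1115 and 1465 (−0.66 ± 0.15, limma adjusted p = 0.022). TM replicate 4 was the nearest to vehicle in both. With the block *ugt-2* (0.43), *ugt-1* (0.36) and *ugt-7* (0.26) were higher and *ugt-60* (−0.25) was lower. None of 22 ABC transporter genes passed. With the block 2 did, *pgp-5* (0.42) and *wht-1* (0.24), and of 6 glutathione transferases *gst-22* did (0.38). In that fit 3.86% of all tested genes were higher and 2.07% lower. The call of *cyp-43A1* was lost without WT TM replicate 1 or 3 or WT vehicle replicate 1, 2 or 4 (adjusted p up to 0.10) and that of *cyp-35A2* without WT TM replicate 1 or 2 (0.061). That of *ugt-22* was lost without WT TM replicate 1, 2 or 3 or WT vehicle replicate 1, 2 or 3, with only the WT libraries and with quantile normalization (up to 0.12).

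Cuticle collagens leaned downward as a family. They build the exoskeleton that epidermal cells secrete, and pass through the ER. Of 40 tested genes 39 had a log2 difference below 0 (57.1% of all tested genes did), with a median of −0.31. Of the 40, 5 passed, all lower, where 0.729% of all tested genes were called lower. *col-98* (chromosome III, 13019008 to 13020226, plus strand) had 9290, 7648, 10433 and 9813 normalized counts with vehicle and 3612, 4722, 3816 and 6092 with TM. *col-179* (chromosome X, 11201465 to 11202485, plus strand) had 23146, 23093, 30716 and 22160 against 10582, 15077, 11685 and 13705. In both genes the lowest vehicle library was above the highest TM library, and the means fell to 49.1% and 51.5% (log2 differences −1.02 ± 0.15 and −0.95 ± 0.14, limma adjusted p = 7.1e-04 and 5.5e-04). The other called members were *col-80* (−0.75), *col-130* (−0.59), whose groups overlapped, and *col-124* (−0.54). With the replicate block 6 more were lower, *col-110*, *col-73*, *col-125*, *col-184*, *col-81* and *col-178*, by −0.57 to −0.42. Over all tested genes 2.07% were lower in that fit.

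Summed over the 40 genes, the collagen counts were 561383, 509573, 677530 and 586124 with vehicle and 394667, 410783, 428026 and 525187 with TM. The sums overlapped because TM replicate 4 was high, but each of the 4 TM libraries was below the vehicle library of its number, and the mean was 75.3% of vehicle. All 4 pairs were lower in 22 of the 40 genes, as in 8.31% of all tested genes. Quantile normalization left 36 of the 40 below 0, voom 37, and centring of the libraries 38. Of 6 collagens named for body shape all were below 0 (median −0.41) and none passed, also with the block. Near-identical collagen genes can share reads, so single members are uncertain. The call of *col-130* was lost in 17 of 29 alternatives (adjusted p up to 0.20). That of *col-124* was lost without WT TM replicate 1 or 2 or WT vehicle replicate 1 or 3, and with quantile normalization, where its adjusted p was 1.

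A few single genes of other classes fell. *cpt-5*, a carnitine acyltransferase of the kind that brings fatty acids into mitochondria, had 568, 512, 719 and 581 with vehicle and 148, 284, 214 and 339 with TM. This left 41.4% of the vehicle mean with no overlap (log2 difference −0.90 ± 0.13, limma adjusted p = 3.7e-04). It was the 1 of 18 tested genes for fatty acid breakdown that passed, where 0.729% of all tested genes were called lower. Of the 18, 8 were above 0, as were 42.9% of all tested genes. None of 8 genes for autophagy and lysosomes passed, and 7 of them were above 0. *asp-13*, an aspartyl protease, had 2418, 2021, 3076 and 2210 against 946, 1437, 1385 and 1180 (−0.87 ± 0.15, limma adjusted p = 0.0024). The proton pump subunit *vha-5*, which is used in the epidermis, had 2735, 2409, 3034 and 2445 against 1522, 1900, 1802 and 1990 (−0.51 ± 0.10, limma adjusted p = 0.011), a call lost with quantile normalization (0.13). Both pairs of groups were apart. *vap-1*, a secreted protein of the venom-allergen type from glia around sensory neurons, fell from 99, 91, 81 and 94 to 16, 25, 17 and 55, which was the lowest share of vehicle among the called genes (31.2%; log2 difference −0.59 ± 0.09, limma adjusted p = 0.0014). In fat synthesis none of 10 genes passed, and the fatty acid synthase *fasn-1* (−0.48) and the desaturase *fat-7* (−0.66) did so only with the block. In that fit 2.07% of all tested genes were lower.

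**Figure D4:**
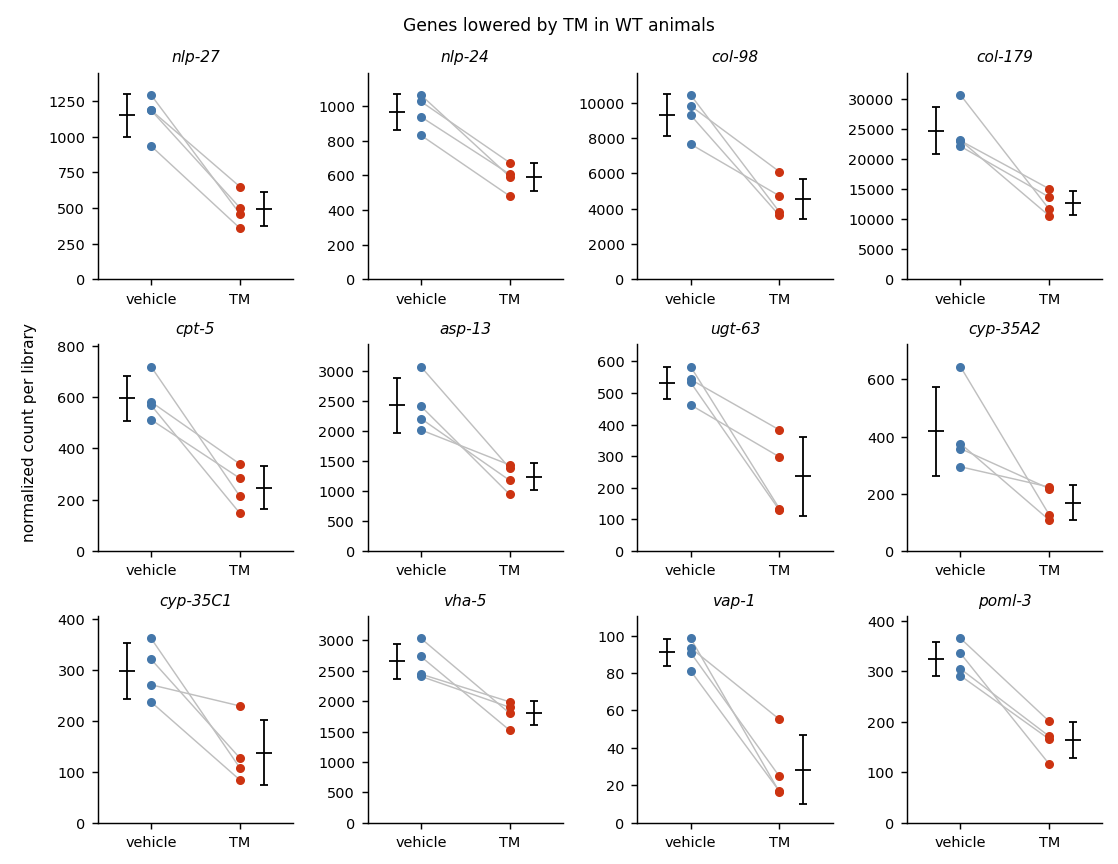
Normalized counts of 12 genes that TM lowered in WT animals, drawn as in the plot of raised genes with blue for vehicle, red for TM, grey lines between libraries of the same replicate number and black marks for mean ± SD. The red points lie below all blue points in every panel. *ugt-63*, *cyp-35C1* and *vap-1* show 1 TM library, replicate 4, nearer to vehicle than most others.

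Neighbouring genes fell together in 2 places. *poml-2* and *poml-3*, paraoxonase-like genes 731 bases apart on chromosome I (minus strand), had means of 182.8 ± 24.9 and 324.7 ± 33.1 with vehicle and 97.5 ± 19.4 and 163.8 ± 35.2 with TM (SD, n = 4). The log2 differences were −0.45 ± 0.09 and −0.60 ± 0.09 (limma adjusted p = 0.014 and 9.1e-04). *F20A1.1* (now *spig-1*) and *F20A1.10* (now *txt-17*) lie 537 bases apart on opposite strands of chromosome V, and had −0.41 ± 0.08 and −0.59 ± 0.08 (limma adjusted p = 0.012 and 3.0e-04). *F20A1.10* had the lowest spread relative to its mean of all called genes on vehicle, with 431, 419, 420 and 417 normalized counts on vehicle and 236, 210, 218 and 240 on TM. By chromosome the calls were most numerous on V, with 10 higher and 13 lower (18.27% of tested genes lie there), and on X, with 12 higher and 4 lower (15.75%). Chromosomes I to IV each held 2 or 3 raised and 2 to 5 lowered genes.

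The *pud* genes, named as proteins upregulated in *daf-2* mutants, showed the lowest list median (−0.99) but depended on the pairing. For *pud-1.1* the normalized counts were 3447, 3743, 4378 and 12477 with vehicle and 972, 974, 1809 and 6728 with TM. Both libraries of replicate 4 were several times above the others of their group, so the groups overlapped, while each TM library was below the vehicle library of its number. None of the 5 genes passed in limma (adjusted p of 0.18 to 0.65). All 5 passed with the replicate block, where 2.07% of all tested genes were lower. Their log2 differences were −1.36 (*pud-1.1* and *pud-3*), −0.99 (*pud-2.1* and *pud-2.2*) and −0.77 (*pud-4*). Without WT TM replicate 4 all 5 passed too, where 53 of the 4115 tested genes were lower. The 5 *pud* genes lie within 7916 bases of chromosome V, and *pud-2.1* and *pud-2.2* had identical counts, so the 5 are not independent.

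Of the 64 called genes 31 are on no list, and several of these changed as much as the named families. *gad-3* (chromosome V, 9168393 to 9173005, minus strand) had 451, 492, 521 and 403 with vehicle and 1562, 1437, 1724 and 1582 with TM, far apart (log2 difference 1.44 ± 0.10, limma adjusted p = 2.8e-08). *F41B4.3* (chromosome X, 6835491 to 6836115, minus strand), which has no descriptive name in the annotation, had 91, 69, 76 and 49 against 369, 372, 448 and 311. This was a 5.28-fold rise on a low level (1.29 ± 0.09, limma adjusted p = 2.8e-08). The carboxylesterase gene *C52A10.1* (now *cest-32*, 0.80) and *C34C12.4* (now *smim-14*, 0.79) also rose. *F45D11.14* fell from 1571, 1466, 1729 and 1643 to 524, 686, 1107 and 840 (−0.91 ± 0.14, limma adjusted p = 0.0014), and *F42A10.7* by −0.72, a call lost on log2 of the count plus 1 and without WT TM replicate 1 or 3 or WT vehicle replicate 1, 3 or 4 (adjusted p up to 0.099).

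The remaining 23 called genes fell outside the rule by which genes were chosen for naming, and those that follow were chosen after their values were seen. Of the 23, 12 were raised by 0.33 to 0.74 and 11 lowered by −0.51 to −0.29. They include *fis-2*, a mitochondrial fission factor (0.52), *ubc-23*, a ubiquitin-conjugating enzyme (0.37), *nucb-1*, a calcium-binding nucleobindin (0.38), and *acd-2*, an ion channel of the degenerin type (0.33). Lowered were *alh-9*, an aldehyde dehydrogenase (−0.51), and *F11C1.5* (now *vwa-8*, −0.40). Of these 6, *fis-2* and *acd-2* passed in every alternative in which they were tested. Over all 64 genes this held for 35, of which 22 were raised and 13 lowered.

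Protein synthesis genes were slightly lower as a body, with no single call. All 40 tested cytoplasmic ribosomal protein genes had a log2 difference below 0 (median −0.14), as had all 16 translation factor genes (median −0.058), against 57.1% of all tested genes. None of these 56 passed in limma, also with the block, and 4 ribosomal protein genes had an unadjusted p under 0.05. Summed normalized counts of the ribosomal protein genes were 756030, 711826, 784952 and 785108 with vehicle and 736590, 674099, 633544 and 707218 with TM, so the groups overlapped and the mean was 90.6% of vehicle. The direction depended on the scaling. With quantile normalization 24 of the 40 ribosomal protein genes were below 0 and 16 above it (median −0.022), and without WT TM replicate 4 it was 38 and 2. Of the 16 translation factor genes 11 were below 0 with quantile normalization, and their median in the pair of replicate 1 was 0.096. In *osm-3* mutants 36 of the 40 ribosomal protein genes (median −0.13) and 15 of the 16 translation factor genes (−0.22) were below 0 as well. Histones (26 of 33 below 0, median −0.057), mitochondrial ribosomal proteins (22 of 26, −0.060) and germline genes (18 of 22, −0.064) also held no call in either fit. With quantile normalization 21 of 33 histones, 20 of 26 mitochondrial ribosomal proteins and 13 of 22 germline genes were below 0, as were 2179 of the 4115 tested genes. The yolk protein genes *vit-2* and *vit-5* each had −0.35, did not pass, and were at 0.04 and 0.00 with quantile normalization. In all, 51 of the 72 lists with a tested gene held no call.

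The WT response was compared with that of *osm-3* mutants for the 64 genes. In *osm-3* mutants 3 of 4115 genes passed (0.0729%), and 2 of them are among the 64, *dod-24* and *cyp-35A2*. The response differed between the genotypes for 20 genes in limma (0.486%), all of them among the 64 and all closer to 0 in the mutants, 11 raised and 9 lowered in WT animals. Among genes called in WT animals in the same fit, this count was 10 to 24 on leaving out 1 library, and it was 10 without replicate 1 or 3 of WT vehicle, replicate 3 of *osm-3* TM or replicate 1, 2 or 4 of *osm-3* vehicle. The 64 genes were picked on the WT difference, which is part of the comparison, so their smaller size in the mutants is a description. With the replicate block the responses of 66 genes differed (1.6%), 31 of them among the 64 and 49 among the 244 of that fit.

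Most raised genes were above 0 in the mutants too, whereas the lowered genes were centred near 0 there, a difference that was not tested. The 34 raised genes had a median of 0.21 in *osm-3* mutants and 33 of them were above 0, where 58.2% of all tested genes were below 0. The 30 lowered genes had a median of −0.011, and 16 were below 0. The widest gaps were those of *ckb-2* (0.49 in the mutants, difference −2.14, 95% interval −2.49 to −1.79, limma adjusted p = 1.0e-06), *gale-1* (0.29, −1.53) and *srp-7* (0.19, −1.47). Among lowered genes *nlp-27* had 0.37 in the mutants, opposite in sign to WT animals (difference 1.36, 95% interval 0.87 to 1.85, limma adjusted p = 0.0069). *col-98* (−0.00), *col-179* (0.04) and *cpt-5* (−0.03) had values near 0. As a family the 40 tested cuticle collagens had a median of 0.21 in the mutants, with 31 above 0 and 9 below it. All 6 body-shape collagens were above 0 there (median 0.83). No collagen of either list was called in the mutants.

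For 44 of the 64 genes no difference between the genotypes passed. In some the 2 responses were close in size. *cyp-35C1* had −0.67 in WT animals and −0.68 in the mutants, and the interval of the difference ran from −0.39 to 0.37. *ugt-22* had −0.66 and −0.67, with an interval of −0.45 to 0.41. *dod-24* had 0.63 and 0.91 (−0.17 to 0.73), *cyp-35A2* −0.81 and −1.28 (−0.96 to 0.02), and *bre-1* 0.85 and 0.50 (−0.74 to 0.02). These intervals do not show that the responses were equal.

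**Figure D5:**
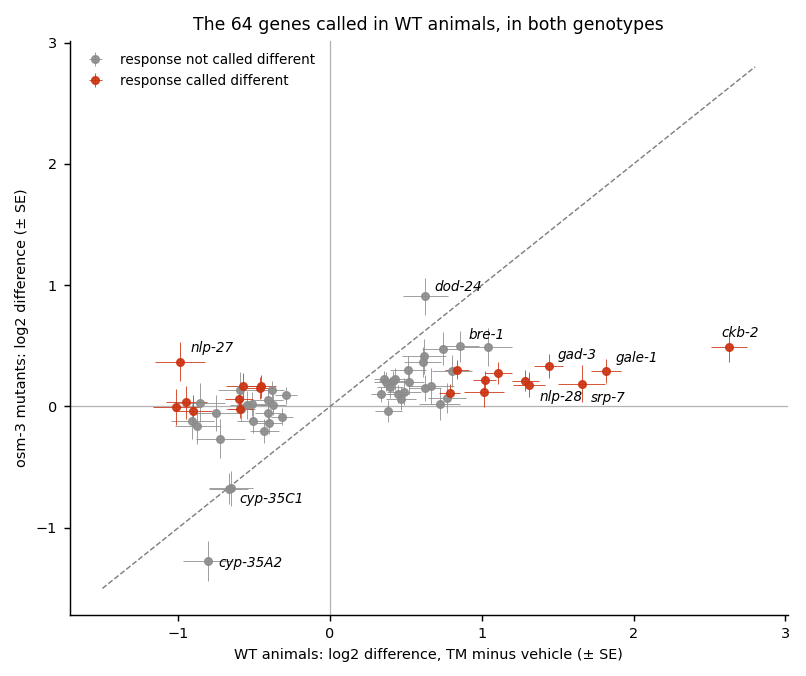
Log2 differences between TM and vehicle of the 64 genes called in WT animals, with WT animals on the x axis, *osm-3* mutants on the y axis and bars for ± SE. The dashed line marks equal responses, and red points are the 20 genes whose responses differed between genotypes. Most raised genes lie below the dashed line but above 0 on the y axis, and *cyp-35C1* lies on the line.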

How the data were processed

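RNA-seq values of 16 libraries, 4 in each of 4 groups (WT and *osm-3(dh441)*, vehicle and TM), were analysed. After trimming, reads had been assigned by the authors to WBcel235 cDNA of Ensembl (kallisto 0.43.0, strand-specific mode) and summed by gene, and the deposited log2 values are variance-stabilized counts from DESeq2 1.16.1. Tables of the authors' own comparisons, which hold mean normalized counts, fold changes, standard errors, test statistics, p-values and adjusted p-values, were not used. The deposited log2 values were converted back to reads, and 100% came out within 0.01 of a whole number. Size factors recovered in the same step gave the normalized counts. Totals were 4173301 to 8144875 reads per library on 8347 named genes, and 1 entry without a name was left out. Names and positions came from the annotation of WBcel235, in which 105 entries were not matched, *arf-1.1* among them.

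The test was limma 3.58.1 in R 4.3.3, eBayes using a variance trend, fitted to the 4 group means of all 16 libraries (12 residual degrees of freedom). It was two-sided, with Benjamini-Hochberg adjustment over 4115 genes, and the median SE was 0.099. Methods state no covariates. Replicate numbers are those of the labels, which do not say what they mark. Deviations of same-number TM and vehicle libraries correlated at 0.25 to 0.58 in WT animals and 0.33 to 0.86 in *osm-3* mutants, so a fit with these pairs as blocks is given where it changes a call. Unlike numbers ranged from −0.66 to 0.47 in WT animals and from −0.73 to 0.56 in *osm-3* mutants. In *osm-3* mutants TM replicate 3 was closer to vehicle replicate 2 (0.56) than to vehicle replicate 3 (0.36). Whether replicates were separate cultures is not given in the labels. The paper calls them biological replicates, taken in a snaking order meant to limit batch effects. The p-values measure the spread between these libraries. The fit was tested on simulated data first. Gene lists (73) are described by counts and medians, with no test of lists. The members and lists were chosen with earlier results of these data known. Named are the 15 largest increases and decreases that passed without overlap, list members that passed, *hsp-4* and *pdi-1*, up to 2 members of lists without a call, and members that passed only with the block. Alternatives were other filters (no filter, 3 log2 units), only the WT libraries, replicate blocks, eBayes without trend or robust, weights for each library, quantile normalization, centring on the median, log2 of the normalized count plus 1, limma voom on the recovered reads, and leaving out each library. Promoter motifs were not analysed here.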

Additional observations from a re-analysis of the deposited data

Results flagged for a closer look

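Dixon's test was applied to 90 sets of 4 WT libraries and set a single library apart in 5, close to the 1 in 20 (4.5) that chance alone gives. The libraries were WT TM replicate 2 (12.2% of reads on the 10 most abundant genes), WT vehicle replicate 2 (reads on 43.4% of the genes nearly silent elsewhere), WT vehicle replicate 1 for *C34C12.4* (log2 value 8.34), WT TM replicate 1 for *ckb-4* (8.21) and WT vehicle replicate 3 for *col-179* (14.92).

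The TM response differed between the genotypes for 20 genes in limma. As the response of *osm-3* mutants minus that of WT animals on the log2 scale, the difference was −2.14 for *ckb-2*, −1.53 for *gale-1*, −1.47 for *srp-7*, −1.13 for *nlp-28*, −1.11 for *gad-3* and −1.07 for *F41B4.3*. It was −0.89 for *hsp-4*, −0.83 for *pdi-6*, −0.80 for *C14B9.2*, −0.67 for *C34C12.4* and −0.53 for *dnj-7*. Among genes lowered in WT animals it was 1.36 for *nlp-27*, 1.01 for *col-98*, 0.98 for *col-179*, 0.87 for *cpt-5* and 0.74 for *nlp-24*. The smallest were 0.66 for *poml-3*, 0.62 for *poml-2* and *C55A6.4*, and 0.57 for *F20A1.10*.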

How the results depend on the processing

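The number of genes differing between TM and vehicle in WT animals (64) was 24 with the filter at 3 log2 units, which tests fewer genes, and 595 with weights for each library (334 higher and 261 lower). It was 193 with a replicate block shared by the genotypes, 244 with the block within genotype and 263 with the block in WT libraries alone, and the pairing changed no call among the 64. Leaving out 1 library gave 41 (without WT vehicle replicate 1) to 161 (without WT TM replicate 4). For the other settings it was 59 to 89. The number whose response differed between genotypes (20) was 12 with the filter at 3 log2 units, 79 with weights, 32 with the shared block and 49 with the block within genotype. Over omissions of 1 library it was 10 to 24. It was 10 on leaving out replicate 1 or 3 of WT vehicle, replicate 1, 2 or 4 of *osm-3* vehicle, or replicate 3 of *osm-3* TM. It was 11 and 12 on leaving out replicates 2 and 1 of *osm-3* TM, and 13 and 12 on leaving out replicates 1 and 3 of WT TM. It has no value in the 2 fits of WT libraries alone. The causes were not tested, beyond the smaller number of genes under the filter.

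Among named genes the sign turned only where nothing was called. *lact-5* had −0.0030 with quantile normalization, and −0.019 to 0.079 over omissions of 1 library (below 0 without replicate 1 or 2 of WT vehicle). *nas-37* had −0.156 to 0.026 (above 0 without replicate 4 of WT TM or replicate 3 of WT vehicle). *vit-2* had 0.039 with quantile normalization. Strong changes are within reach of 4 libraries a group, whereas changes near the median SE of 0.099 are not, and genes below the filter and most genes from F46 on were not analysed here. Promoter motifs were not run.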
